A study of Mus musculus with 10 samples.

Results

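DP nEnd are the cells of an nEnd culture that carry both OCT4 and the surface receptor PDGFRA, and the measurement described here is how far their promoter H3K4me3 lay from the midpoint of the populations that carry only one of these proteins. nEnd (naive extra-embryonic endoderm) is a mouse stem cell culture that resembles the primitive endoderm (PrE) of the blastocyst. All libraries came from 1 untreated cell line, OCT4-mCherry, whose OCT4 protein carries a red fluorescent tag, grown in RACL medium with Activin A, the GSK3 inhibitor CHIR99021 and LIF. Cells were separated by flow sorting on the mCherry tag and on staining for PDGFRA into DP nEnd (3 libraries), Oct4+ nEnd (4 libraries) and Pdgfra+ nEnd (3 libraries), and the H3K4me3 histone mark was mapped with CUT&Tag, a method that tethers a transposase to antibody-bound chromatin so that marked sites are cut and sequenced. All 10 peak lists were used. Each peak was ranked by total signal (its coverage summed across its length) among the peaks of its own library and given a percentile. The score of a gene was the percentile of its best peak within 1000 bp upstream to 100 bp downstream of a protein-coding start site, and 0 where it had no peak there. The departure of a gene was the DP mean score minus the midpoint of the Oct4+ mean and the Pdgfra+ mean, in percentile points.

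H3K4me3 is deposited at the start sites of active genes, where a high and wide peak usually accompanies frequent transcription. In the blastocyst the inner cell mass divides into the epiblast, which keeps pluripotency factors such as OCT4 (gene Pou5f1), SOX2 and NANOG, and the PrE, which turns on GATA6, SOX17, GATA4 and PDGFRA. DP cells bear one marker of each lineage, so each promoter can be asked whether DP resembled one of the single-positive populations, lay between them, or lay outside both. In sorted pools, a smaller share of marked cells and less mark per cell cannot be told apart. Pou5f1 and Pdgfra are also the genes of the sort itself, so their own order among the populations follows the gate.

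Of 21670 protein-coding genes, 9741 had a promoter peak in at least 3 of the 10 libraries and were tested, 1742 had a peak in fewer libraries and 10187 had none. The libraries differed in how much was called. DP libraries held 7575 to 8836 peaks, Oct4+ libraries 3477 to 9144 and Pdgfra+ libraries 6510 to 10545, and the median highest coverage of a peak was 107 to 144 in DP, 22 to 59 in Oct4+ and 67 to 143 in Pdgfra+. The 3 libraries with the fewest peaks were Oct4+ replicates 3 and 4 and Pdgfra+ replicate 2, so both single-positive means, and not the DP mean, contained at least 1 sparse library. All 3 DP libraries had a promoter peak at both Pou5f1 and Pdgfra. Of 15 fibroblast genes that would mark the feeder cells of the culture, 13 had no promoter peak in any library, and Twist1 scored 12.9, 13 and 0 in the DP libraries against at most 8.43 elsewhere.

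By means alone, DP lay between Oct4+ and Pdgfra+ nEnd at 5323 of the 9741 tested genes (54.65%), above both at 3460 (35.52%), below both at 879 (9.024%) and level with one of them at 79 (0.811%). Where DP lay between, Pdgfra+ was the higher population at 4023 genes and Oct4+ at 1300. The median departure was 5.68 percentile points (interquartile range 0.113 to 12.5) and 75.37% of genes were positive. The median standard error of a departure was 9.64 points. The positive median moved with single libraries. It was 9.08 without Pdgfra+ replicate 1, the library with the most peaks, 3.16 without Oct4+ replicate 3 and 3.37 without Pdgfra+ replicate 2. It was -1.47, with 41.27% of genes positive, when the 3 libraries with the fewest peaks were left out, and 1.93 when each library was cut to its 3477 strongest peaks, which left 5138 genes to test.

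**Figure D1:**
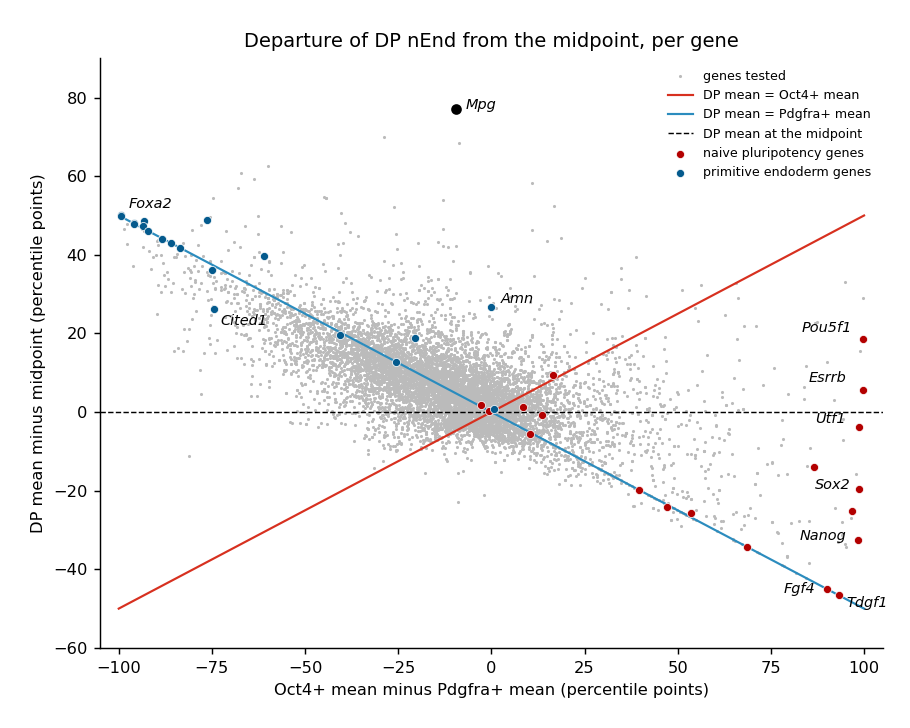
Departure of DP nEnd from the midpoint (vertical axis, percentile points) against the Oct4+ mean minus the Pdgfra+ mean (horizontal axis, percentile points), 1 grey point for each of 9741 tested genes. The red line marks genes whose DP mean equals the Oct4+ mean and the blue line those whose DP mean equals the Pdgfra+ mean. Points between the lines to the left and right are genes where DP lies between. Most primitive endoderm genes (dark blue) lie near the blue line, naive pluripotency genes (dark red) spread from near Pou5f1 at 18.5 to Tdgf1 at -46.5, and Mpg stands at 77.1.

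On the percentile scale, few genes departed beyond the spread between libraries, a count that other scales changed. In limma, fitted over all 10 libraries and adjusted by Benjamini-Hochberg over the 9741 genes, the departure was higher at 1 gene (0.0103%) and lower at 0, while 550 genes above and 86 below had an unadjusted p under 0.05. DP differed from Oct4+ nEnd at far more genes than from Pdgfra+ nEnd. DP was higher than Oct4+ at 807 genes (8.28%) and lower at 166 (1.7%), and it was higher than Pdgfra+ at 10 (0.103%) and lower at 0. With equal numbers of peaks the counts against Oct4+ were 1186 and 824 and those against Pdgfra+ 81 and 70, without the 3 libraries with the fewest peaks they were 1167 and 762, and 19 and 0, and by highest coverage they were 314 and 92, and 0 and 0. For comparison, Oct4+ was higher than Pdgfra+ at 429 genes (4.4%) and lower at 1381 (14.2%). These counts were 376 and 2399 without Oct4+ replicate 1, 273 and 703 without Oct4+ replicate 4, 517 and 692 without Pdgfra+ replicate 1, 271 and 703 without Pdgfra+ replicate 3 and 945 and 1068 on gene ranks. A gene was called outside both populations, or between them, only when DP differed from each. By that rule Mpg was above both (0.0103%), none was below both, Pou5f1 was between with Oct4+ the higher (0.0103%) and none was between with Pdgfra+ the higher. The departure calls moved with single libraries. In the same test 58 genes were higher and 6 lower without Oct4+ replicate 1, 15 and 1 without Oct4+ replicate 2, 45 and 20 without Oct4+ replicate 3, and 40 and 0 without Pdgfra+ replicate 1. Genes above both numbered 0 without DP replicate 1 or Pdgfra+ replicate 3 and 8 without Pdgfra+ replicate 1. Genes between with Oct4+ the higher numbered 0 without any 1 of the DP replicates or of Oct4+ replicates 2 and 4, and 7 and 5 without Pdgfra+ replicates 1 and 2. Without the 3 libraries with the fewest peaks, 220 genes had a higher departure and 44 a lower one. With equal numbers of peaks 378 of 5138 tested genes were higher and 246 lower, on gene ranks 333 and 58 of 9741, and without the mean-variance trend 125 and 22.

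Calls against a single population moved with single libraries too. Genes higher in DP than in Oct4+ numbered 248, 244 and 339 without DP replicates 1, 2 and 3, 1849 and 1244 without Oct4+ replicates 1 and 2, and 411 without Oct4+ replicate 4. Genes lower in DP than in Oct4+ numbered 71, 78 and 70 without the same DP replicates, 278 without Oct4+ replicate 3 and 102 without Oct4+ replicate 4. The 10 genes higher in DP than in Pdgfra+ became 0, 4 and 5 without DP replicates 1, 2 and 3, 4, 3 and 3 without Oct4+ replicates 1, 2 and 4, and 46 and 4 without Pdgfra+ replicates 1 and 3. Because the adjusted test called so little, the order of the libraries was also counted, a description added after the results were seen. Every DP library lay above every other library at 59 genes (0.606%), below every other at 1 (0.0103%), between all Oct4+ and all Pdgfra+ libraries with Oct4+ the higher at 121 (1.24%) and with Pdgfra+ the higher at 352 (3.61%). An order that only separates DP from the rest is easier to meet than one that separates all populations, so these counts are not comparable. How many genes shuffled labels would give was not computed, so the counts do not set these genes apart from chance.

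The promoters of 5 genes that stand for these patterns are printed from RefSeq (GRCm38.p6), from 250 bases before to 50 bases after the start site, 5′ to 3′ on the gene's strand with each CG dinucleotide in capitals. Mpg (chr11:32226255-32226554, plus strand) is the gene called above both, Amn (chr12:111270846-111271145, plus) had a peak in DP alone, Ihh (chr1:74951623-74951922, minus) scored higher in DP than in any Pdgfra+ library, and Utf1 (chr7:139943606-139943905, plus) and Pou5f1 (chr17:35505782-35506081, plus) lay between with Oct4+ the higher. H3K4me3 promoters are commonly rich in CG, and these windows held 22 CG dinucleotides at Mpg, 15 at Amn, 30 at Ihh, 17 at Utf1 and 11 at Pou5f1. The window lay wholly inside the scored peak in all 3 DP libraries for each of the 5 genes. It lay inside the peak in all 4 Oct4+ libraries at Utf1 and Pou5f1 and in none at the others, and inside a Pdgfra+ peak in all 3 libraries at Ihh, in 2 at Mpg and in none at Amn, Utf1 and Pou5f1.
Mpg: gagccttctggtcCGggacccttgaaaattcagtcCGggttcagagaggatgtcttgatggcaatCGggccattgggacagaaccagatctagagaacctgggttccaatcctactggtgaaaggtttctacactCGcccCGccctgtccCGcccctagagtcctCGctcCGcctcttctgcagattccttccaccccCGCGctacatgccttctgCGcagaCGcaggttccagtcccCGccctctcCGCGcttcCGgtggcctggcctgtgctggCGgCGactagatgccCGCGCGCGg
Amn: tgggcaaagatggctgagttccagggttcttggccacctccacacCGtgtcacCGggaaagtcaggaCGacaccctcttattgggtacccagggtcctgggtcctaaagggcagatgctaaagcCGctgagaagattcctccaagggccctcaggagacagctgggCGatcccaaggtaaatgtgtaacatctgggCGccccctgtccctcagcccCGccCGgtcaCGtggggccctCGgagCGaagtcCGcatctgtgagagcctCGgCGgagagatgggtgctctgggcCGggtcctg
Ihh: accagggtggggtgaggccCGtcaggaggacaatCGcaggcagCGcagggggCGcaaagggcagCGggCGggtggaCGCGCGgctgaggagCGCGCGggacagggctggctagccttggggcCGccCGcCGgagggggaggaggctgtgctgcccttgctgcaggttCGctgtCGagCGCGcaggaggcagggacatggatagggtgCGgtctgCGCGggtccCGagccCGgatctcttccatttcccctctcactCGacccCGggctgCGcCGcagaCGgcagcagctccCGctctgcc
Utf1: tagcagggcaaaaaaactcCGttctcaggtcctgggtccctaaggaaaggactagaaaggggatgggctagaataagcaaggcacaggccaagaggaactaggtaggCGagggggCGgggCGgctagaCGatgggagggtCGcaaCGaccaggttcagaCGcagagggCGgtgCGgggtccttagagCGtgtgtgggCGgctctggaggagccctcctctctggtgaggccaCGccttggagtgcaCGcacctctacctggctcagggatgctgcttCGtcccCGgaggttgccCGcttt
Pou5f1: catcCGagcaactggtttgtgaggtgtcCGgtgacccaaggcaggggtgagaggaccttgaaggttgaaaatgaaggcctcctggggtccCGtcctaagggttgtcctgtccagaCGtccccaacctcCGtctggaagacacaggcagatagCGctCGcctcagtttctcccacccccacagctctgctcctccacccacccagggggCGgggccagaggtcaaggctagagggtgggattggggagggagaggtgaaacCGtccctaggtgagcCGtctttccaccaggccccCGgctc

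Mpg, which encodes a DNA glycosylase of base excision repair, had the largest departure of all genes. Its DP scores were 83.5, 81.0 and 80.9, its 4 Oct4+ scores were 0, and its Pdgfra+ scores were 23.8, 0 and 4.41. The DP mean of 81.8 ± 1.44 (SD, n = 3) exceeded the midpoint by 77.1 points (SE 7.67, limma adjusted p = 0.00216). Mpg had a peak in only 2 libraries outside DP, so it reached the minimum of 3 libraries only through DP, where it is high, and this p is no independent support for the difference. With a minimum of 1 library in place of 3, the adjusted p was 0.00448 in limma. The DP peaks that gave this score were not centred on Mpg. They were 8158 to 12533 bp wide and also covered the promoter of Rhbdf1, which encodes an inactive rhomboid protein and runs in the opposite direction. Their highest coverage lay 4631 to 4842 bp upstream of the Mpg start site, on the Rhbdf1 side. In Pdgfra+ replicates 1 and 3 the 2 promoters had separate peaks, and in Oct4+ replicates 1, 2 and 4 and Pdgfra+ replicate 2 only the Rhbdf1 side had one. Rhbdf1 itself scored 83.5, 81.0 and 80.9 in DP against 37.7, 32.1, 0 and 24.4 in Oct4+ and 73.1, 57 and 74.3 in Pdgfra+, a departure of 36.0 points (SE 10.7, limma adjusted p = 0.318). The call for Mpg was lost when peaks were ranked by highest or by mean coverage and when the promoter window was 2500 bp on each side. Its departure under these settings ranged from 15.2 to 60.8. Why the call was lost was not tested.

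**Figure D2:**
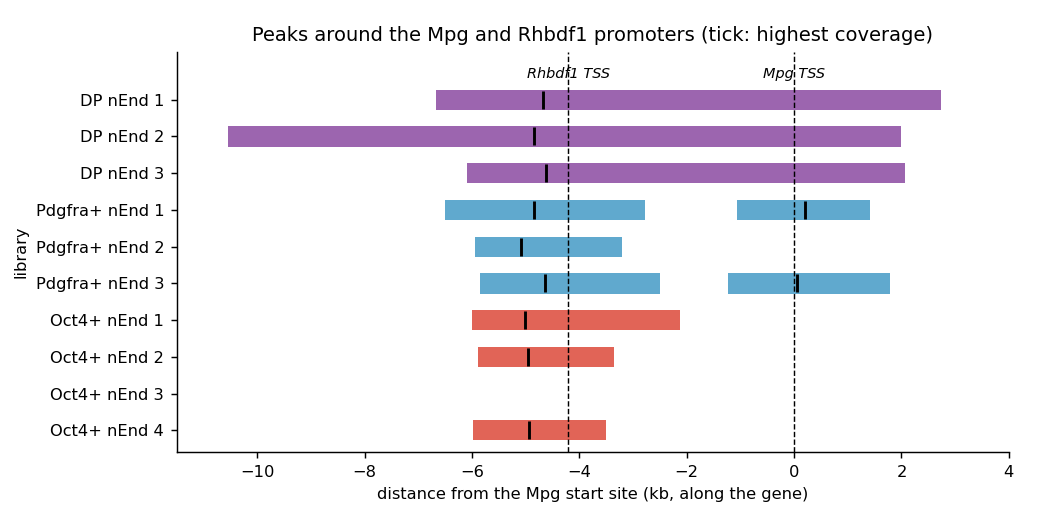
Peaks around the Mpg and Rhbdf1 start sites, 1 row per library, by distance from the Mpg start site in kb (positive values run into Mpg). Bars are the extent of each called peak and black ticks the place of highest coverage, and the 3 DP libraries (purple) each have 1 peak that spans both start sites.

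Among the 59 genes where all DP libraries exceeded all others, 9 held that order whether peaks were ranked by total signal, by highest coverage or by mean coverage. They included Hs3st3b1, Nrg2, Amn, Pde3a, Ihh, Fam78a, and Ccdc47 with Ddx42, which share a peak. A score of 0 stays 0 under every ranking. The order was therefore fixed at Amn, and its part over Oct4+ was fixed at Nrg2, Pde3a and Ihh, where Oct4+ was at 0. Amn encodes amnionless, which anchors the endocytic receptor cubilin, and Ihh encodes the Indian hedgehog ligand. Both are known from extra-embryonic endoderm. Amn scored 18.4, 29.3 and 32.6 in DP and 0 in all 7 other libraries, the only gene with a promoter peak in every DP library and none elsewhere. Its departure was 26.8 points (SE 5.05). Amn entered the tested genes only through its DP peaks, so its difference from the other populations was set by the filter and is given as a description. Ihh scored 80.1, 81.7 and 81.9 in DP, 0 in the 4 Oct4+ libraries and 70.6, 49.4 and 67.6 in Pdgfra+. Ihh entered the test only through DP and Pdgfra+, and it was picked because DP lay above both. Its test against Oct4+ is therefore no independent support for that difference. At Ihh DP was called higher than Oct4+ (limma adjusted p = 0.000566), and the difference from Pdgfra+ did not pass (limma adjusted p = 1.0).

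By distance from the nearer population, the first 6 regions of these 59 genes were Mpg with Rhbdf1, Plekha2, Maf, Hs3st3b1, Clic6 and Bmp6. Maf, a leucine zipper transcription factor, scored 53.0, 49.3 and 38.2 in DP, 0 in Oct4+ and 28.2, 0 and 0 in Pdgfra+. Bmp6, a BMP ligand, scored 46.9, 48.1 and 35.9 in DP, 0 in Oct4+ and 26.6, 0 and 4.62 in Pdgfra+. For both, the Pdgfra+ library with the most peaks was the nearest to DP, and the departures were 42.1 and 38.4 points. Like Mpg and Amn, both reached the minimum of 3 libraries only through DP, so no test is given. Of the 59 genes, 9 did so (15.3%), against 6.48% of all tested genes. Nrg2, a ligand of ERBB receptors, scored 74.4, 77.5 and 79.5 in DP against 0 in Oct4+ and 54.1, 28.2 and 52.3 in Pdgfra+. Hhex, a homeobox factor of anterior visceral endoderm, scored 76.7, 79.4 and 75.1 in DP, 68.8, 55.9, 10.3 and 37.0 in Oct4+ and 62.3, 39.2 and 57.6 in Pdgfra+, so every DP library lay above all others, with a departure of 29.1 points (SE 12.6, limma adjusted p = 0.709). The count of 59 rose to 520 without Pdgfra+ replicate 1, the library with the most peaks, and to 106 and 143 without DP replicates 1 and 3. It was 61 without the 3 libraries with the fewest peaks. A DP peak shared with another gene was found at 30.51% of the 59 genes and at 28.79% of all tested genes.

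Below both populations only Patz1, a zinc finger transcription factor, had DP libraries lower than all others, and by little. It scored 96.2, 96.6 and 96.4 in DP, 97.4 to 98.5 in Oct4+ and 96.8 to 98.5 in Pdgfra+. This count was not stable. It was 218 without the 3 libraries with the fewest peaks, 15 without Pdgfra+ replicate 2, 13 without Pdgfra+ replicate 3, 6 and 2 without Oct4+ replicates 3 and 4, 2 without Pdgfra+ replicate 1, and 4 without DP replicate 2 or 3. The 3 sparse libraries had median scores of 0, 11.6 and 36.3 over the tested genes, against 46.8 to 55.4 in DP.

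Between the populations with Oct4+ the higher, Pou5f1 was the one call. It encodes the tagged protein of the sort, so this order follows the gate and the p-values are no independent support. The DP scores of Pou5f1 were 70.2, 62.2 and 72.4, its Oct4+ scores ran from 99.3 to 99.9 and its Pdgfra+ scores were 0. DP minus Oct4+ was -31.3 points (SE 8.93, limma adjusted p = 0.0443) and DP minus Pdgfra+ was 68.3 points (SE 9.54, limma adjusted p = 0.0214). No gene was called in this class by highest or mean coverage, with a peak over 50% of the window or with the replicate block. The Pou5f1 departure of 18.5 points (SE 8.09, limma adjusted p = 0.716) turned to -41.5 when peaks were ranked by highest coverage. The DP peaks at Pou5f1 were 8109 to 9490 bp wide, against 8924 to 10892 bp in Oct4+ replicates 2, 3 and 4 and 19575 bp in Oct4+ replicate 1, where the peak spans 3 genes. Their highest coverage reached only the 6.81 to 8.45 percentile of a DP library, against 95.5 to 99.5 in Oct4+.

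The 10 genes called higher in DP than in Pdgfra+ are named here because they passed that test, a choice made after their values were seen. Apart from Mpg, all of them had their highest scores in Oct4+ nEnd. They were Zfp296 with Gemin7, Mymx with Slc29a1, Pou5f1, Zfp219, Glo1, Rarg and Spry4, where the joined names share a DP peak. Zfp296, a zinc finger protein of pluripotent cells, scored 81.5, 87.8 and 85.2 in DP, 99 to 99.5 in Oct4+ and 12.9, 0 and 0 in Pdgfra+. Gemin7, with the same DP and Oct4+ scores, scored 55.6, 25.1 and 43.2 in Pdgfra+, so DP exceeded Pdgfra+ by 43.5 points there and by 80.5 at Zfp296. Mymx and Slc29a1 shared their DP and Oct4+ scores too, with Pdgfra+ scores of 0 at Mymx and 32.7, 0 and 4.53 at Slc29a1. Spry4, a feedback inhibitor of FGF signalling, scored 72.3, 72.2 and 75.9 in DP, 84.4 to 98.4 in Oct4+ and 22.7, 0 and 0 in Pdgfra+. Rarg, a retinoic acid receptor, scored 93.8, 92.1 and 92.2 in DP, 99.6 to 99.9 in Oct4+ and 67.0 to 77.4 in Pdgfra+. Of these 9, DP was also called lower than Oct4+ at Pou5f1 alone. The same 3 Pdgfra+ libraries stand on the lower side of each of these comparisons.

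Of the 121 genes whose libraries were ordered Oct4+, DP, Pdgfra+, 27 kept that order under all 3 ranking measures. They included the pluripotency genes Pou5f1, Esrrb, Sox2, Nanog and Utf1, the TGF-beta family ligands Nodal, Bmp4 and Gdf3 and the transcription factors Klf12 and Klf15. A gene without a peak scores 0 under every measure. Pdgfra+ was at 0 at all of these except Klf15, so there the order of DP over Pdgfra+ could not change. The distance from each end varied widely among the 27 genes. Esrrb, an orphan nuclear receptor, scored 66.0, 63.3 and 37.4 in DP, at least 99.3 in Oct4+ and 0 in Pdgfra+, near the midpoint with a departure of 5.71 points (SE 9.57). Utf1, a chromatin factor of undifferentiated cells, scored 74.9, 31.5 and 30.2 in DP, so its DP replicate 1 lay far above the other two. Klf12 was more uniform, at 46.7, 47.0 and 42.3 in DP against 89.5 to 98.3 in Oct4+ and 0 in Pdgfra+. Sox2 scored 21.2, 40.4 and 27.7 in DP and Nanog 18.8, 19.6 and 11.5, both against at least 96.8 in every Oct4+ library and 0 in Pdgfra+, so their departures were -19.5 (SE 9.33) and -32.5 (SE 8.87), on the Pdgfra+ side of the midpoint. Nodal scored 30.4, 37.9 and 31.6 in DP, 95.7 to 99.1 in Oct4+ and 0 in Pdgfra+. The count of 121 rose to 283 without Pdgfra+ replicate 1 and to 215 without the 3 libraries with the fewest peaks.

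**Figure D3:**
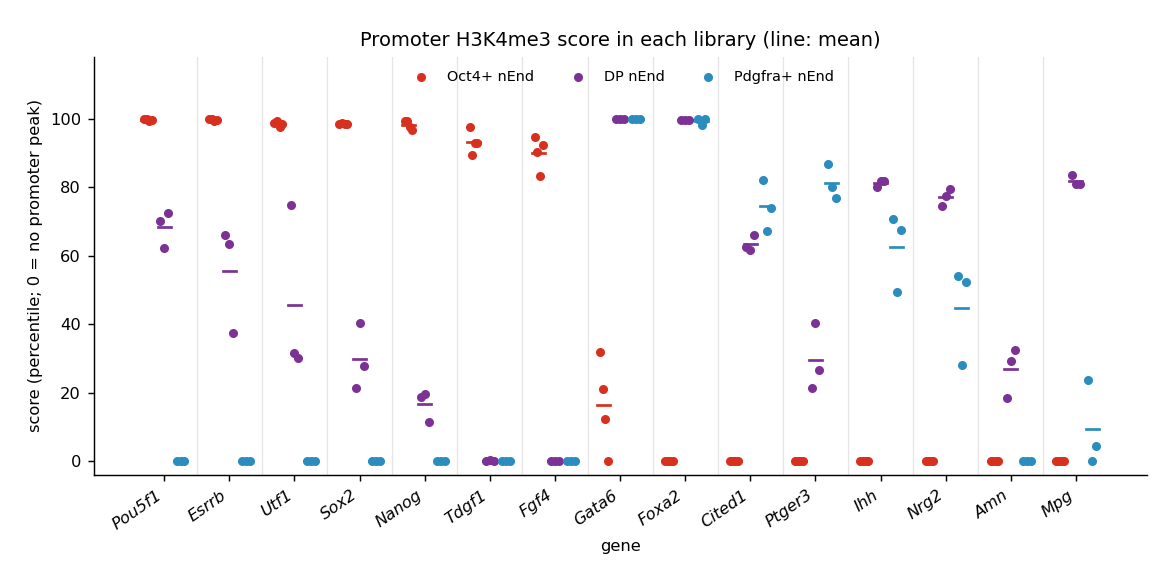
Promoter H3K4me3 score (percentile of the best promoter peak by total signal within its library, 0 where there is no peak) for 15 named genes, 1 point per library and a line at the mean of each population. DP points fall from 68.3 (mean) at Pou5f1 to 0 at Fgf4 among genes that Oct4+ marks strongly, lie with Pdgfra+ at Gata6 and Foxa2, and lie above both at Ihh, Nrg2, Amn and Mpg.

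The naive pluripotency genes as a list lay toward Pdgfra+. Of 23 genes, 19 were tested, and their median departure was -14.0 points against 5.68 over all tested genes. DP was called lower than Oct4+ at 12 of them (1.7% of all tested genes) and higher at none (8.28%), and called higher than Pdgfra+ at 1, Pou5f1 (0.103%). Of the 12, 3 had a peak in Oct4+ libraries alone and so entered the test only through the population where they were high, as did 37 of the 166 genes called lower than Oct4+ in all. Other members had little or no peak in DP. Fgf4, the FGF ligand that epiblast cells send to PrE, scored 83.2 to 94.7 in Oct4+ and 0 in all DP and all Pdgfra+ libraries, a departure of -45.0 points (SE 8.14, limma adjusted p = 0.0582). Tdgf1, the Nodal co-receptor Cripto, scored 89.4 to 97.7 in Oct4+ and 0, 0.441 and 0 in DP, and had the lowest departure of the list, -46.5 points (SE 8.2, limma adjusted p = 0.0582). Outside Oct4+, Tdgf1 had a peak in only 1 library. Like Fgf4, it reached the minimum of 3 libraries only through Oct4+, so neither p is independent support. Prdm14 and Nr0b1 were likewise at 0 in DP and Pdgfra+ and at 46.3 to 87.3 and 20.1 to 56.4 in Oct4+. Klf4, Sall4, Tbx3 and Klf5 had high scores in every DP library, and Klf4 scored 99.4, 99.7 and 99.7 there against 95.0 to 97.9 in Oct4+ and 98.7 to 99.6 in Pdgfra+. The list's median departure was -9.95 to -16.0 with each library left out in turn and -6.07 without the 3 libraries with the fewest peaks. Its departures, called at none, were called at 10 of 18 tested members with equal numbers of peaks, where 12.1% of all genes were called, and at 4 of 16 without those 3 libraries, where 2.74% were. The median came to -0.0185 on a scale of gene ranks and 0.864 over the 6 genes with a peak in all 10 libraries.

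Most PrE genes had DP scores well above those of Oct4+ nEnd. Of 24 genes, 20 were tested, all 20 had a positive departure, and the median was 43.5 points. DP was called higher than Oct4+ at 18 of the 20, against 8.28% of all tested genes, and different from Pdgfra+ at none, which was the outcome at all but 0.103% of tested genes. Of the 18, 7 had no peak in any Oct4+ library and entered the test only through the other populations, as did 175 of the 807 genes called higher than Oct4+ in all. Gata6, the first transcription factor of PrE, scored 99.9 in each DP library, 31.9, 21.0, 12.3 and 0 in Oct4+ and at least 99.9 in Pdgfra+. Foxa2, an endodermal transcription factor, scored at least 99.7 in each DP library, 0 in Oct4+ and 98.2 to 99.9 in Pdgfra+. Pdgfra scored at least 99.8 in DP and Pdgfra+ libraries and 15.7, 0, 0 and 0 in Oct4+. For such genes the departure comes to the midpoint's own distance from Pdgfra+, as for Foxa2 at 50.1 (SE 8.06, limma adjusted p = 0.0582). The basement membrane genes of the list differed in Oct4+. Lama1, Lamb1, Col4a1 and Col4a2 scored 99.2 or more in every DP library with Oct4+ means of 3.62 to 11.7, while Lamc1 had means of 99.8 in DP, 74.3 in Oct4+ and 99.9 in Pdgfra+, a departure of 12.7. Cited1, a transcriptional co-regulator, was the member most clearly short of Pdgfra+, at 62.5, 61.7 and 66.1 in DP against 82.2, 67.4 and 74.0. The median for the list was 41.4 to 47.4 with each library left out in turn and 37.5 without the 3 libraries with the fewest peaks, but 12.7 over the 3 genes with a peak in all 10 libraries. No departure was called in the list, whereas 14 of 18 tested members passed with equal numbers of peaks (12.1% of all genes), 15 of 20 without the 3 libraries with the fewest peaks (2.74%) and 16 of 20 without the mean-variance trend of the fit (1.51%). Single libraries moved this count too. It was 11, 7 and 11 of 20 without Oct4+ replicates 1, 2 and 3, and 3 of 20 without Pdgfra+ replicate 1. Over all tested genes 64, 16, 65 and 40 were called there.

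Genes ordered Pdgfra+, DP, Oct4+ were more numerous, at 352, but only 6 kept the order under all 3 ranking measures. These were Ptger3, Kif21a, Rundc3b, Fam214b, 4932438A13Rik and Kif17. Oct4+ was at 0 at Ptger3, Kif21a, Fam214b and Kif17, where the order of DP over Oct4+ could not change with the ranking. Ptger3, a prostaglandin E2 receptor, scored 21.4, 40.4 and 26.5 in DP, 0 in Oct4+ and 86.8, 80 and 76.8 in Pdgfra+, a departure of -11.1 points (SE 8.19). Kif21a, a kinesin motor, scored 49.9, 52.8 and 53.3 in DP, 0 in Oct4+ and 70.9 to 77.7 in Pdgfra+. The first 6 regions by distance were Rab15, Ptger3, Irs1, Smim1, Tcaf1 and Frmpd1. Rab15, a small GTPase of vesicle traffic, scored 42.1, 54.3 and 48.7 in DP, 12.1, 7.38, 0 and 0 in Oct4+ and 80.8 to 83.8 in Pdgfra+. Irs1, the insulin receptor substrate, scored 58.1, 53.9 and 52.0 in DP, 18.6, 0.63, 0 and 0 in Oct4+ and 70.4 to 90.7 in Pdgfra+. DP libraries did not overlap either population at these genes, yet none passed the test against Pdgfra+. The count of 352 was 891 without Pdgfra+ replicate 2, 601 without Pdgfra+ replicate 3, 557 without DP replicate 2, and 891 without the 3 libraries with the fewest peaks.

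A position scale places DP at 0 where its mean equals the Oct4+ mean and at 1 where it equals the Pdgfra+ mean. The genes used were those called different between Oct4+ and Pdgfra+. In that contrast DP libraries add to the estimate of spread, and their peaks also count toward the minimum of 3 libraries. At the 1381 genes higher in Pdgfra+, the median position was 0.890, DP was nearer to Pdgfra+ at 94.13% and past it at 242 genes (17.52%). Of the 1381, 250 were at 0 in Oct4+, entered the test only through DP and Pdgfra+ and cannot lie below position 0. No median without those genes was computed. At the 429 genes higher in Oct4+, the median position was 0.665, DP was nearer to Pdgfra+ at 67.6% and past it at 11. Of the 429, 46 were at 0 in both DP and Pdgfra+, entered the test only through Oct4+ and stand at position 1 by construction. Over the other 383 the median was 0.617 and DP was nearer to Pdgfra+ at 63.71%. The first set had medians of 0.889, 0.946 and 0.848 in the 3 DP libraries and the second 0.653, 0.570 and 0.748. For the same genes with each library left out in turn, the medians were 0.853 to 0.945 and 0.565 to 0.764. Past Pdgfra+ lay 494 genes of the first set without Pdgfra+ replicate 1 and 92 without Pdgfra+ replicate 2, and of the second set 4 without Pdgfra+ replicate 1, 39 without Pdgfra+ replicate 2, and 25 and 23 without DP replicate 2 and Pdgfra+ replicate 3. Without the 3 libraries with the fewest peaks the medians were 0.782 for genes higher in Pdgfra+ and 0.795 for genes higher in Oct4+. The order of the 2 medians turned there. For the same genes with peaks ranked by highest coverage the medians were 0.922 for genes higher in Pdgfra+ and 0.836 for genes higher in Oct4+, and by mean coverage they were 0.954 and 0.957. With the genes called anew under each ranking, the order turned by highest coverage (0.838 over 627 genes and 0.905 over 169) and by mean coverage (0.886 over 284 and 0.946 over 103).

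**Figure D4:**
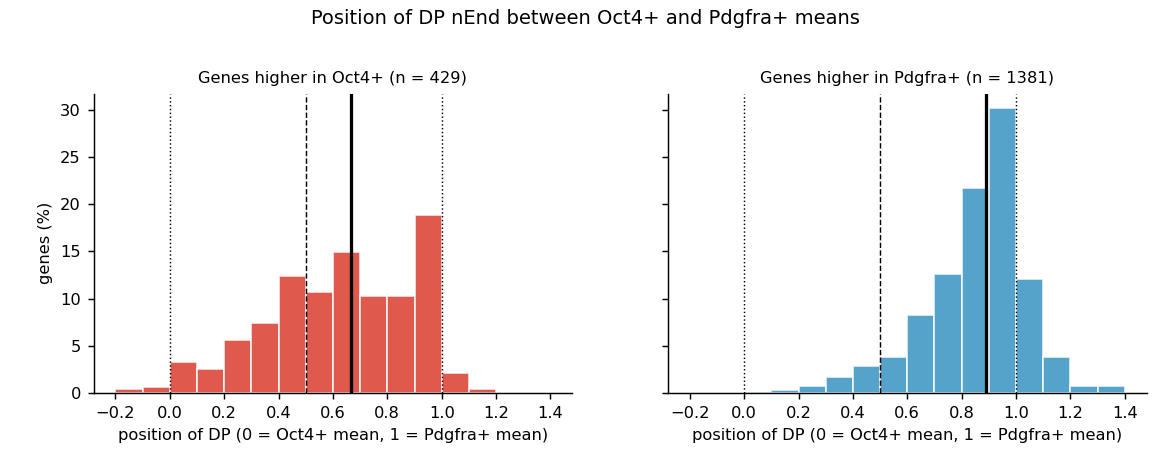
Share of genes (%) by the position of the DP mean between the Oct4+ mean (0) and the Pdgfra+ mean (1), for the 429 genes called higher in Oct4+ (left) and the 1381 called higher in Pdgfra+ (right). Dotted lines mark 0 and 1, the dashed line the midpoint and the thick line the median (0.665 and 0.890), and the right panel is the narrower, with most genes close to 1.

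The DP peaks at genes marked most in Oct4+ nEnd were wide for their height. Width and coverage are parts of the total signal that chose these genes, so the values are a description with no test. At the 429 genes higher in Oct4+, DP peaks had a median width of 5220 to 6430 bp over the 3 libraries, within the 5091 to 8150 bp of the Oct4+ libraries and above the 2589 to 4557 bp of the Pdgfra+ libraries. Over all tested genes the medians were 3645 to 4357 bp in DP, 3474 to 4134 bp in Oct4+ and 2239 to 4079 bp in Pdgfra+. Relative to the median over all tested genes in the same library, peaks at the 429 genes were 1.43 to 1.5 times as wide in DP, 1.45 to 1.97 times in Oct4+ and at most 1.16 times in Pdgfra+. The median percentile of these DP peaks by highest coverage was 40.3 to 46.6, inside the 37.0 to 51.5 of Pdgfra+ libraries and below the 62.9 to 76.2 of Oct4+ libraries. By total signal it was 62.3 to 65.9, above the 50.4 to 59.5 of Pdgfra+ and below the 80.6 to 93.3 of Oct4+. By highest coverage these DP peaks were in the range of Pdgfra+ nEnd, and in relative width they lay above Pdgfra+ and at the low end of Oct4+. By mean coverage their median percentile was 29.9, 38.3 and 29.5 in the DP libraries, against 31.5 to 50.9 in Pdgfra+ and 53.4 to 70.4 in Oct4+. A peak was present at 82.8 to 87.9% of the 429 genes in DP and 50.3 to 80% in Pdgfra+, against 86.8 to 97.5% and 74.6 to 98.6% of all tested genes. At the 1381 genes higher in Pdgfra+ the width of DP peaks, 3765 to 4651 bp, was close to that over all genes. Utf1 shows the pattern in single libraries. Its DP peaks were 9211, 5621 and 4440 bp wide, and their highest coverage stood at the 23.5, 2.57 and 1.71 percentile, against 66.8 to 95.0 in Oct4+.

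**Figure D5:**
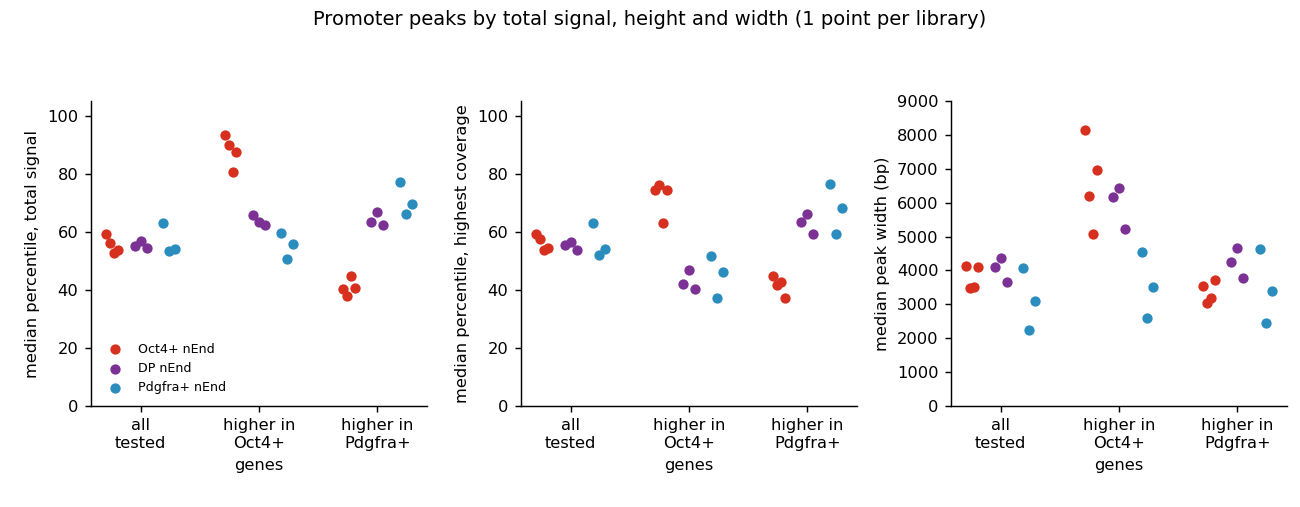
Median percentile of promoter peaks by total signal (left), by highest coverage (middle) and median peak width in bp (right), 1 point per library, for all tested genes, the genes called higher in Oct4+ and those called higher in Pdgfra+. At genes higher in Oct4+, DP points (purple) lie among Oct4+ points by width in bp and among Pdgfra+ points by highest coverage.

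Genes where DP equalled one population did so at 0. DP and Pdgfra+ were both without a peak at 401 genes that had one in Oct4+, and DP and Oct4+ were both without one at 1005 genes that had one in Pdgfra+. At 40 of the 401, all 4 Oct4+ libraries had the peak, and at 1 of the 1005 all 3 Pdgfra+ libraries did. Besides Fgf4, Prdm14 and Nr0b1, the 40 included Foxd3, a forkhead factor of pluripotent cells, at 5.72 to 57.8 in Oct4+, and Tfap2c, a factor of trophectoderm and germ cells, at 46.1 to 80.4. No gene had DP equal to another population above 0.

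The medians of the other lists ran from 0.518 to 17.8 points, against 5.68 over all genes. JAK/STAT genes, which transmit the LIF signal of the medium, had a median departure of 11.2 points over 17 tested. Socs3, a feedback inhibitor of that pathway, scored 95.0, 96.8 and 97.3 in DP, 79.7 to 82.6 in Oct4+ and 96.0 to 98.1 in Pdgfra+, and DP was called higher than Oct4+ (limma adjusted p = 0.00167). FGF/ERK genes had a median of 5.54 over 15, with Dusp6, the ERK phosphatase, at 91.5, 86.5 and 83.3 in DP, 94.9 to 98.5 in Oct4+ and 45.5 to 75 in Pdgfra+. WNT and Nodal/Activin genes had a median of 7.59 over 20. Trophectoderm genes had a median of 13.9 over 9, and Krt8, a keratin of simple epithelia, scored 74.9, 72.1 and 70.2 in DP, 0 in Oct4+ and 69.4 to 89.5 in Pdgfra+. Krt8 had the largest departure of the 9, 32.1 points. The departure was positive at 7 of the 9, while Cdx2 stood at -0.956 and Tfap2c, at 0 in DP, at -32.4. Formative and primed pluripotency genes had a median of 0.518 over 12. Visceral endoderm genes had a median of 7.98 over 6, Hox genes 17.8 over 6 and ribosomal protein genes 3.19 over 73, and the 1 tested mesoderm gene stood at 7.96. The departure was called at no member of any list. On gene ranks, where 4.01% of all genes were called, it was called at 4 of 9 trophectoderm and 4 of 15 FGF/ERK genes, and without the 3 libraries with the fewest peaks (2.74%) at 4 of 18 WNT and Nodal/Activin genes. With equal numbers of peaks (12.1%) it was called at 4 of 13 FGF/ERK, 4 of 14 WNT and Nodal/Activin, 3 of 9 formative and primed and 5 of 64 ribosomal protein genes. These medians moved with the libraries and the ranking. With each library left out in turn they were -3.17 to 5.41 for formative and primed pluripotency, -0.812 to 6.22 for ribosomal protein genes, 1.93 to 8.01 for FGF/ERK, 4.69 to 19.3 for visceral endoderm, 6.5 to 19.2 for trophectoderm, 5.02 to 16.2 for WNT and Nodal/Activin, 7.1 to 14.9 for JAK/STAT and 13.6 to 24.3 for Hox genes. The lowest formative value came without DP replicate 1, the lowest for visceral endoderm and WNT and Nodal/Activin without Oct4+ replicate 3, and the lowest for ribosomal protein, FGF/ERK and trophectoderm genes without Pdgfra+ replicate 2. Without the 3 libraries with the fewest peaks the medians were -1.5 for JAK/STAT, 3.46 for trophectoderm, -4.0 for ribosomal protein, 2.37 for WNT and Nodal/Activin, 2.11 for FGF/ERK, 8.14 for Hox and 0.249 for formative and primed pluripotency genes. The FGF/ERK median was -0.555 by highest coverage, and the trophectoderm median was 33.2 on gene ranks.

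The sequence of the promoters was compared across these groups. The windows were read from GRCm38.p6, 250 bases before to 50 after the most upstream start site of each tested gene. Median GC content was 61.3% over all tested genes, 62.7% at the 59 genes with DP above both, 60.3% at the 429 higher in Oct4+ and 64.0% at the 1381 higher in Pdgfra+. The median number of CG dinucleotides was 22 over all genes, 22 at the 59 and 18 at the 429. The GATA motif AGATAA, on either strand, occurred in 5.08% of the 59 windows and 5.38% of all. The octamer ATGCAAAT, bound by OCT factors, occurred in 3.39% of the 59 and 1.3% of all, which is 2 windows of 59. A TATA box, TATAAA, occurred in 11.9% of the 59 (7 windows), 7.93% of the 429 and 6.1% of all. These are matches of letters in a short window and were not tested.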

How the data were processed

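H3K4me3 CUT&Tag peaks of 10 libraries (3 DP, 4 Oct4+ and 3 Pdgfra+ nEnd) were analysed. The paper states 3 biological replicates unless noted otherwise, while Oct4+ has 4 libraries. The authors aligned reads to mm10 with Bowtie2, computed coverage and called peaks with SEACR against IgG (stringent). Submitters' processing notes also name bcl2fastq 2.19.1, SAMtools 1.12, bedtools 2.26.0 and deepTools. Each deposited list gives the total signal and the highest coverage of every peak as an unscaled signal, so libraries were compared by ranks. The deposited consensus lists were not used. Read depth is not given with the peaks, so no interval was computed. A library with fewer peaks has more scores of 0.

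Genes were the 21670 protein-coding genes of GENCODE M21 on chromosomes 1 to 19 and X (54081 start sites), and an overlap of 1 bp with the window of 1000 bp upstream to 100 bp downstream counted. Scores of 9741 genes with a peak in at least 3 libraries were fitted with limma 3.58.1 (R 4.3.3, mean-variance trend, population as the term), with the contrasts DP minus the midpoint, DP minus Oct4+, DP minus Pdgfra+ and Oct4+ minus Pdgfra+. All tests were two-sided, and a call needed a Benjamini-Hochberg adjusted p under 0.05. A score is a percentile with a bound at 0 and at 100, and p-values treat its spread as common to the 3 populations. Genes named by rule were, per class, the 6 regions with DP farthest from the nearer population, and members of 12 lists. A few of these genes are not reported here. As few genes were called, the same rule was applied to the order of libraries. The members and lists were chosen with earlier results of these data known. The labels do not say whether libraries with the same replicate number share a culture or a sort. Alternatives were another ranking value, equal peak numbers, other windows and gene filters, gene ranks, no trend, a replicate block and leaving out libraries. Total signal, unlike coverage height, grows when adjacent peaks join.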

Additional observations from a re-analysis of the deposited data

Results flagged for a closer look

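Of 67 genes named in the report, the 4 Oct4+ scores of 8 had a library set apart from the other three by more than Dixon's 95% critical value for 4 samples (gap over range). For normal values chance gives about 1 in 20. That rate does not apply where the other three scores are 0, since any single peak then gives a ratio of 1.0. Oct4+ replicate 1 alone had a peak, with a ratio of 1.0, at Pdgfra (15.7), Fam78a (5.5), Lama1 (14.5), Lamb1 (20.5) and 4932438A13Rik (4.42), and it stood at 18.6 against 0.63, 0 and 0 at Irs1 (ratio 0.966). That library has 9144 peaks, the most of the 4. Oct4+ replicate 3, with 3477 peaks, stood low at Spry4 (84.4 against at least 96.4, ratio 0.852) and at Foxd3 (5.72 against at least 55.6, ratio 0.959). The part of peak number in these values was not tested. DP and Pdgfra+ nEnd have 3 libraries each and were not examined in this way.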

How the results depend on the processing

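Counts are given in the order departure higher and lower, DP above Oct4+, DP below Oct4+, DP above Pdgfra+, DP below Pdgfra+, then genes called above both, between with Oct4+ the higher and between with Pdgfra+ the higher (main values 1, 0, 807, 166, 10, 0, 1, 1 and 0). Only counts that moved by over 1.5 times are given. Ranking by highest coverage gave 0 departures higher, 314 above and 92 below Oct4+, 0 above Pdgfra+, 0 above both and 0 between. Mean coverage gave 0, 156, 65, 0, 0 and 0 for the same. Equal numbers of peaks gave departures of 378 higher and 246 lower, 824 below Oct4+, 81 above and 70 below Pdgfra+, 21 above both and 40 and 22 between. Gene ranks gave 333 and 58, 512 below Oct4+, 60 above and 1 below Pdgfra+ and 35 between with Oct4+ the higher. Without the trend they were 125 and 22, with 1 below Pdgfra+ and 10 and 1 between. The wide window gave 0 higher and 0 above both, and a peak over 50% of the window 3 higher, 3 above both and 0 between. With a peak in at least 1 library there were 43 higher, 2 lower, 2 above both and 3 between, and with a peak in all 10 there were 0 higher, 17 above and 4 below Oct4+, 3 above Pdgfra+, 0 above both and 0 between. Without the 3 libraries with the fewest peaks there were 220 and 44, 762 below Oct4+, 19 above Pdgfra+ and 12 between.

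The non-overlapping orders (main 59 above, 1 below, 121 with Oct4+ and 352 with Pdgfra+ the higher) came to 4 below, 59 and 121 by highest coverage, 93 above, 30 below, 34 and 51 by mean coverage, 108, 7, 216 and 228 with equal numbers of peaks, 157, 19, 398 and 585 by gene ranks, 35 above, 67 and 99 with a peak in all 10, and 218 below, 215 and 891 without the 3 libraries with the fewest peaks. Leaving out each library in turn gave 1 to 58 and 0 to 20 departures, 244 to 1849 above and 70 to 278 below Oct4+, 0 to 46 above and 0 to 2 below Pdgfra+, 0 to 8 above both, 0 below both, 0 to 7 and 0 between, and orders of 59 to 520 above, 1 to 15 below, 121 to 283 and 352 to 891. Removing a library also makes separation easier by construction. The replicate block gave 417 above and 109 below Oct4+, 3 above Pdgfra+ and 0 between with Oct4+ the higher, and it changed neither the departure calls nor Mpg. Deviations of the 9 same-number pairs of libraries correlated at -0.171 to 0.227 and those of 24 other pairs at -0.38 to 0.345, so numbers were not taken as pairs. Such correlations cannot exclude a shared culture or sort. The Pou5f1 departure of 18.5 reversed to -41.5 by highest coverage, -24.9 with equal numbers of peaks and -34.4 by mean coverage. The causes were not tested.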
